A study of Mus musculus with 16 samples.

Results

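The genes Lcn2, Serpina3n, Saa3, Hp, C3, Cp and Lbp encode proteins of the acute-phase response, and their RNA was followed here in mouse quadriceps. They were taken by symbol from the table of raw read counts, which held all 7 of them among 13320 genes, and each was read beside Alb, the albumin gene of hepatocytes. RNA sequencing (read pairs of 75 bases) had been done on 16 libraries from male CD2F1 mice, 8 weeks old, in 4 groups of 4. In the splenic C26 group, C26 cells, a mouse colon carcinoma line that causes wasting, had been injected into the spleen to model spread to the liver. Sham mice underwent the operation with saline alone. Mice of the subcutaneous C26 group carried the same cells under the skin, and the treatment of the control group is not given in the labels. No transgene or deletion is named for any group, and both tumour groups rest on 1 transplanted cell line. Whether each library is its own animal is not stated, so the tests reflect the spread among libraries, part of which may be technical. The comparisons ask which of these genes were higher in muscle of tumour-bearing mice, and how each stood to Alb in the same library.

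Acute-phase proteins are secreted into blood during inflammation. IL-6 and its relatives signal through gp130 to the transcription factor STAT3, IL-1 and TNF signal to NF-kB, and C/EBP factors and glucocorticoids add to both arms. Hepatocytes are the main source, and they lower Alb during the response, but other cells, muscle among them, can also make several of these proteins. Lcn2 (lipocalin 2) withholds iron from bacteria by binding their siderophores, Hp (haptoglobin) binds free haemoglobin, and Cp (ceruloplasmin) is a copper enzyme that oxidises iron. Serpina3n inhibits serine proteases. Saa3 is a serum amyloid A protein made largely outside the liver in mice, Lbp carries bacterial lipopolysaccharide to its receptor complex, and C3 is the central protein of complement.

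Promoter stretches of Lcn2, Saa3, Serpina3n and C3 are printed because each of these genes rose in muscle of at least 1 tumour group and the pathways above act through known DNA motifs. RefSeq (GRCm38.p6) gave a start for 5 of the 7 genes, these and Cp, and for Alb. The 250 bases before each start were searched on both strands, overlapping matches included. The motifs were TTCNNNGAA for STAT, GGG and CC with any 5 bases between for NF-kB, TTNNGNAA for C/EBP, and GNACA and TGTNC with any 3 bases between for the glucocorticoid receptor. Among 32851 windows of this length, 7.02% held the STAT motif, 45.8% the NF-kB motif, 36.8% the C/EBP motif and 0.387% the glucocorticoid receptor motif. The longest stretch outside annotated exons is given 5′ to 3′ on the strand of the gene, with motif matches in capitals.
Lcn2, chr2:32387798-32387850, minus strand: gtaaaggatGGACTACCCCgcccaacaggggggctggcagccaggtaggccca
Saa3, chr7:46715701-46715926, minus strand: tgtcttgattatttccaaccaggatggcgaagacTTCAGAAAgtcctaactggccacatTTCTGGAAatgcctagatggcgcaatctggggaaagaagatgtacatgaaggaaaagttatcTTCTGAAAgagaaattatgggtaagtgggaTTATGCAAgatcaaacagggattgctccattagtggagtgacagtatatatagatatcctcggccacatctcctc
Serpina3n, chr12:104406458-104406707, plus strand: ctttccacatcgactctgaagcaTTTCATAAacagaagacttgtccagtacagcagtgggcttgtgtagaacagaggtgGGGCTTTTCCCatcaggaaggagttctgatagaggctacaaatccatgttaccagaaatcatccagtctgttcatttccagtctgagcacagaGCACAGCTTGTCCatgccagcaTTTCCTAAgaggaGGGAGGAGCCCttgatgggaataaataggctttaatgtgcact
C3, chr17:57228137-57228386, minus strand: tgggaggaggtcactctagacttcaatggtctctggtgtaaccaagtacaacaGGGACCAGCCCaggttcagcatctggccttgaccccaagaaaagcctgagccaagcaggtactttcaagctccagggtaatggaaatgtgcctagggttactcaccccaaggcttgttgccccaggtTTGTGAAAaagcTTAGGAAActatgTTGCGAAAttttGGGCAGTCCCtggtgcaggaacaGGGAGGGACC
Positions are counted back from the base before the RefSeq start, which is -1. Lcn2 matched the NF-kB motif from -102 to -93 and, outside the stretch shown, the C/EBP motif from -216 to -209, and most of its window lay in exons of other transcripts. Saa3 had 4 C/EBP matches and none to the other motifs. Serpina3n had NF-kB matches starting at -171 and -43, C/EBP matches at -227 and -56, and the only glucocorticoid receptor match of these windows, from -78 to -66. In C3 NF-kB matches started at -197, -33 and -10, and C/EBP matches at -70, -58 and -45. Alb had 4 C/EBP matches, and no window matched the STAT motif, which says only that these letters are absent there.

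Levels are given as CPM (depth-scaled counts after TMM scaling) for replicates 1 to 4. In bulk muscle, more cells of a type and more RNA per cell cannot be told apart. Library totals were 25.9 to 34.9 M counts. All 12 muscle fibre markers were measured and summed to 195691 to 245675 CPM in splenic C26, 156243 to 219080.0 CPM in sham, 145841 to 336623 CPM in subcutaneous C26 and 165261 to 272258 CPM in control.

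Lcn2 had the largest fold change of the 7 genes in both comparisons, except that without control replicate 2 Saa3 had the larger one in subcutaneous C26 (log2 7.26, against 7.15 for Lcn2). It stood at 15.5, 262, 2318 and 620.3 CPM in splenic C26 libraries, against 1.26, 0.682, 0.643 and 0.789 CPM in sham libraries. All splenic C26 libraries lay above all sham libraries, though the highest of them exceeded the lowest 149.8-fold. The log2 fold change was 9.90 ± 1.47 (SE; 95% interval 6.77 to 13.03, adjusted p = 0.000200; edgeR quasi-likelihood, Benjamini-Hochberg). In subcutaneous C26 libraries Lcn2 stood at 417, 374, 20.9 and 190.2 CPM, against 3.28, 4.29, 0.872 and 0.983 CPM in control libraries. The groups again lay apart, with replicate 3 the lowest tumour library, and the log2 fold change was 6.71 ± 1.27 (adjusted p = 0.000888). Neutrophils store Lcn2 in their granules, and splenic C26 replicate 3, the library highest in Lcn2, also had the highest sum of neutrophil and marrow markers, 242 CPM. Without it the log2 fold change of Lcn2 was 8.48 (adjusted p = 0.000393).

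**Figure D1:**
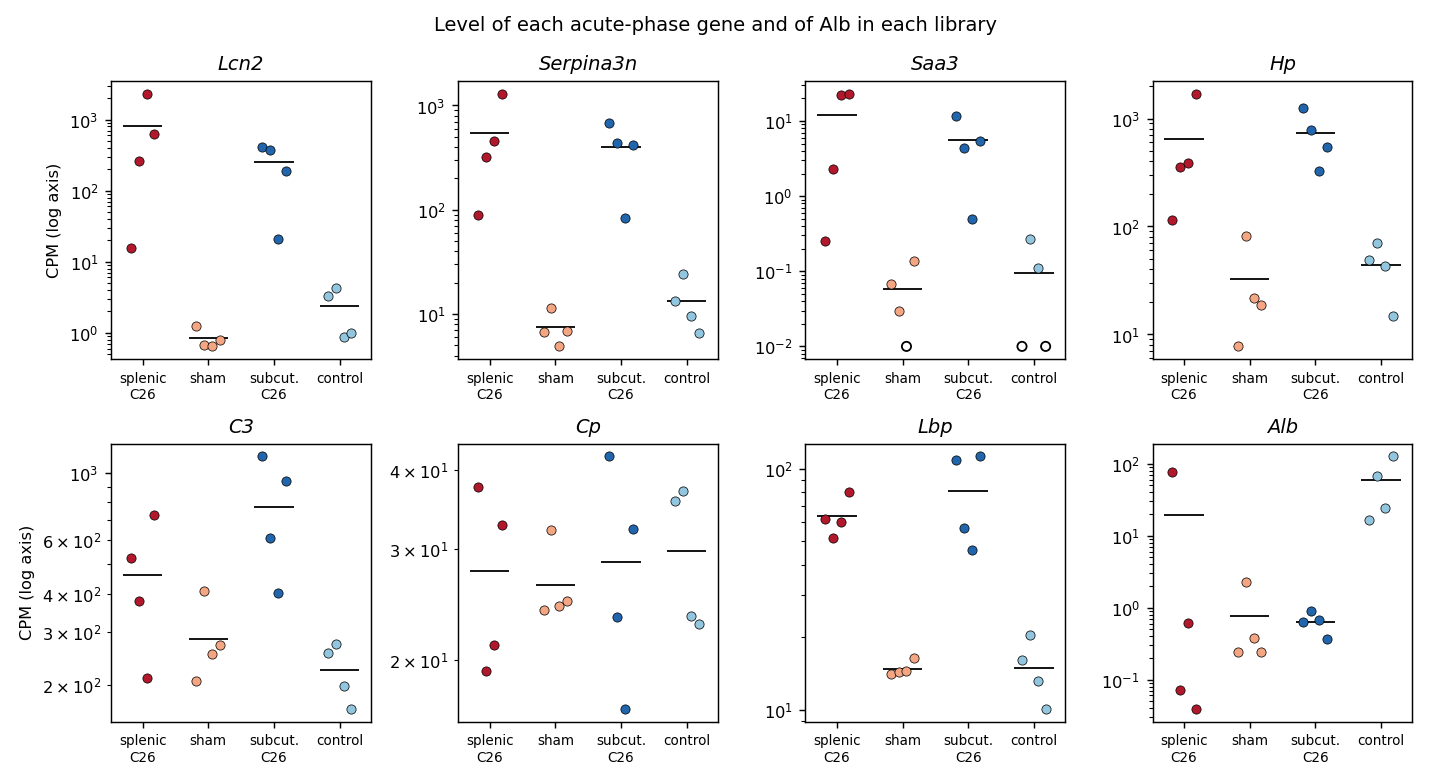
CPM (log axis) of the 7 genes and Alb, 1 point per library in the 4 groups, a line at each group mean and open circles at the bottom for libraries with 0 counts. Lcn2, Serpina3n, Saa3, Hp and Lbp lie higher in every tumour library than in every library of the matching tumour-free group, Cp is interleaved, and Alb is high in control and in splenic C26 replicate 1.

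Hp rose in both tumour groups. It stood at 114, 356, 391 and 1699 CPM in splenic C26 libraries, against 7.76, 82.0, 21.99 and 18.6 CPM in sham libraries. The groups lay apart, with sham replicate 2 close under splenic C26 replicate 1, and the log2 fold change was 4.29 ± 0.88 (adjusted p = 0.00142). Its level in subcutaneous C26 libraries was 1255, 788, 326 and 549 CPM, against 48.6, 69.7, 42.8 and 14.98 CPM in control libraries. These groups were also apart, with a log2 fold change of 4.05 ± 0.87 (adjusted p = 0.00196). Adipocytes express Hp too, and sham replicate 2 had 3918 CPM over the 12 adipocyte markers, against 1027, 1686 and 1347 CPM in sham replicates 1, 3 and 4. Adipoq, the adiponectin gene, was at 12.9, 174, 55.8 and 43.31 CPM in the sham libraries. Over the groups the adipocyte markers summed to 2265 to 3371 CPM in splenic C26, 1027 to 3918 CPM in sham, 2628 to 3498 CPM in subcutaneous C26 and 1406 to 3255 CPM in control, with none at 0 counts in any library. Of these markers, 1 rose and 1 fell in splenic C26, and 2 rose and 1 fell in subcutaneous C26. Sham replicate 2 was also the sham library highest in Alb, at 2.25 CPM, against 0.239, 0.375 and 0.240 CPM in sham replicates 1, 3 and 4. The part of adipocytes or of liver RNA in the Hp result was not tested.

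Cp did not pass in either comparison. It stood at 37.6, 19.2, 21.2 and 32.8 CPM in splenic C26 libraries, against 24.02, 32.2, 24.4 and 24.8 CPM in sham libraries. Subcutaneous C26 libraries held 42.1, 23.4, 16.7 and 32.3 CPM, against 35.8, 37.1, 23.5 and 22.8 CPM in control libraries. Tumour and tumour-free libraries were interleaved both times. The log2 fold change was 0.07 ± 0.28 in splenic C26 (95% interval -0.51 to 0.66, adjusted p = 0.837) and -0.06 ± 0.28 in subcutaneous C26 (95% interval -0.64 to 0.53, adjusted p = 0.877). A rise of up to 1.58-fold lies within the interval of splenic C26. Hps3, on the opposite strand, shares 108 exon bases with Cp, and some of these reads are uncertain, since the strand setting of the counting is not stated.

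Serpina3n (chromosome 12, 104406729 to 104414329, plus strand, mm10) rose in both tumour groups. It stood at 89.8, 319, 454 and 1298 CPM in splenic C26 libraries, against 6.73, 11.4, 4.90 and 6.82 CPM in sham libraries. The groups lay apart, and the log2 fold change was 6.18 ± 0.84 (adjusted p = 0.000125), a 72.4-fold difference with a 95% interval of 20.9 to 251. With subcutaneous C26 it stood at 685, 432, 82.6 and 416 CPM, against 13.4, 24.3, 9.59 and 6.54 CPM in control libraries. The lowest tumour library, replicate 3, was still above all control libraries, and the log2 fold change was 4.91 ± 0.79 (adjusted p = 0.000325). Serpina3 genes are close copies, so reads may be split among them. Of 6 others measured, 5 rose and 0 fell in splenic C26, and 4 rose and 1 fell in subcutaneous C26. Over all genes, 28.1% were called higher in splenic C26 and 27.0% in subcutaneous C26. Serpina3m rose by 6.76 ± 1.04 (adjusted p = 0.000247) in splenic C26 and by 2.63 ± 0.78 (adjusted p = 0.0126) in subcutaneous C26 on the log2 scale. Serpina3i rose by 4.31 ± 0.85 (adjusted p = 0.00102) in splenic C26 and by 4.78 ± 0.90 (adjusted p = 0.000823) in subcutaneous C26. Together the 6 summed to 21.7 to 95.3 CPM in splenic C26, 5.65 to 11.6 CPM in sham, 11.3 to 59.5 CPM in subcutaneous C26 and 11.4 to 38.9 CPM in control.

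Saa3 (chromosome 7, 46711998 to 46715700, minus strand) was near the limit of detection in tumour-free muscle. Its raw counts were 8, 63, 479 and 596 in splenic C26 libraries, against 2, 1, 0 and 4 in sham libraries. The groups lay apart, splenic C26 replicate 1 just so, and the levels in splenic C26 were 0.255, 2.27, 22.5 and 23.1 CPM. In subcutaneous C26 libraries the counts were 368, 138, 12 and 148, against 0, 9, 3 and 0 in control libraries, again apart. The log2 fold change was 7.67 ± 1.51 (adjusted p = 0.00106) in splenic C26 and 5.84 ± 1.39 (adjusted p = 0.00361) in subcutaneous C26. No tumour-free library reached 0.5 CPM, the level that every gene of the deposited table passed in at least 4 libraries, so Saa3 was listed through its tumour libraries and had to differ. With limma-voom both calls were lost (adjusted p = 0.0863 and 0.0875). Saa1, a related gene made by the liver, averaged 22.1 ± 19.7 CPM in splenic C26 and 0.0909 ± 0.0789 CPM in sham (SD, n = 4). Its log2 fold change was 7.83 ± 1.72 (adjusted p = 0.00212). At that level in sham, Saa1 too could be listed only through other libraries. Whether any reads are shared between Saa1 and Saa3 was not tested. In subcutaneous C26 Saa1 averaged 17.5 ± 14.005 CPM and in control 2.75 ± 5.04 CPM, and its log2 fold change of 2.66 ± 1.20 did not pass (adjusted p = 0.0772). Without control replicate 2 the Saa1 value was 6.14 (adjusted p = 0.00298), and without subcutaneous C26 replicate 3 it was 3.04 (adjusted p = 0.0399).

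Lbp rose in both tumour groups. It stood at 61.8, 51.6, 60.1 and 80.2 CPM in splenic C26 libraries, against 14.04, 14.3, 14.4 and 16.5 CPM in sham libraries. Subcutaneous C26 libraries held 109, 57.0, 45.8 and 113 CPM, against 16.01, 20.4, 13.2 and 10.1 CPM in control libraries. Both pairs of groups lay far apart. The log2 fold change was 2.099 ± 0.28 (adjusted p = 9.61e-05) in splenic C26 and 2.44 ± 0.28 (adjusted p = 4.83e-05) in subcutaneous C26, or 4.28-fold and 5.42-fold. Lbp had the smallest p-value of the 7 genes in both comparisons, at rank 197 of all genes in splenic C26 and rank 67 in subcutaneous C26. Lcn2 had rank 423 in splenic C26 and rank 1378 in subcutaneous C26.

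C3 passed only in subcutaneous C26. In splenic C26 libraries it stood at 526, 378, 211 and 724 CPM, against 206, 409, 253 and 271 CPM in sham libraries, and the groups overlapped. The log2 fold change was 0.69 ± 0.36 (adjusted p = 0.118), and without splenic C26 replicate 3 it passed, at 0.93 (adjusted p = 0.0359). In subcutaneous C26 libraries it stood at 1132, 611, 403 and 939.5 CPM, against 255, 274, 199 and 167 CPM in control libraries. These groups lay apart, and C3 rose by 1.79 ± 0.37 (adjusted p = 0.00148) on the log2 scale. That the 2 effects differ was not shown by the test of their difference, given further on.

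Of the 7 genes, 5 rose in splenic C26, where 28.1% of all genes were called higher and 23.9% lower, 52.0% in all. In subcutaneous C26, 6 of 7 rose, where 27.0% of all genes were called higher and 23.1% lower, 50.0% in all. Groups that did not overlap were seen for 5 and 6 of the 7, and, with the tumour group higher, for 21.1% and 25.2% of all genes. The median log2 fold change of the 7 was 4.29 in splenic C26 and 4.05 in subcutaneous C26, against -0.03 and -0.02 over all genes. Since Saa3 could be in the table only through a difference, these figures describe the genes and support nothing further.

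**Figure D2:**
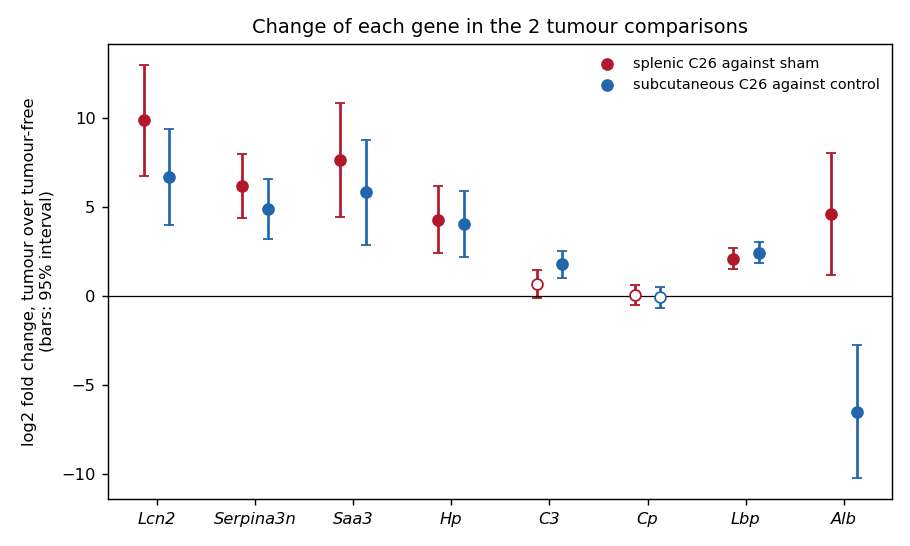
Log2 fold change with 95% interval of each gene and Alb, in splenic C26 against sham and in subcutaneous C26 against control; filled points have an adjusted p under 0.05. Cp straddles 0 in both, C3 passes only in subcutaneous C26, and Alb has opposite signs.

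Per kilobase of exon, the levels in splenic C26 were 398 ± 446 CPM for Hp, 307 ± 396 for Lcn2, 262 ± 255 for Serpina3n, 89.4 ± 42.4 for C3, 13.1 ± 2.49 for Lbp, 4.62 ± 4.79 for Saa3 and 2.90 ± 0.934 for Cp (SD, n = 4). In sham the levels per kilobase were 55.4 ± 16.95 CPM for C3, 20.3 ± 20.9 for Hp, 3.61 ± 1.33 for Serpina3n, 3.06 ± 0.231 for Lbp, 2.75 ± 0.410 for Cp, 0.322 ± 0.109 for Lcn2 and 0.0226 ± 0.0227 for Saa3. C3 thus had the highest mean in sham. In splenic C26 the means of Hp, Lcn2 and Serpina3n were above that of C3, by less than the largest SD among them, and in replicate 1 C3 stood above all of them, at 102 CPM per kilobase, against 71.2 for Hp. In subcutaneous C26 Hp led with 454 ± 248 CPM per kilobase, followed by Serpina3n with 196 ± 119.8, C3 with 150.0 ± 63.4 and Lcn2 with 95.4 ± 69.3. In control C3 led with 43.5 ± 9.58 CPM per kilobase, followed by Hp with 27.4 ± 14.1. By mean CPM, splenic C26 was the highest group for Lcn2, Serpina3n and Saa3, subcutaneous C26 for Hp, C3 and Lbp, and control for Cp. Only the step between the lower tumour group and the next tumour-free group lay outside the spread, and only for Lcn2, Serpina3n, Saa3, Hp and Lbp. All other neighbours overlapped, C3 and Cp at every step.

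Tumour libraries were ranked differently by different genes. Among the 8 tumour libraries, subcutaneous C26 replicate 3 was among the lowest 2 for all genes but C3. Splenic C26 replicate 1 was among the lowest 2 for Lcn2, Serpina3n, Saa3 and Hp, and splenic C26 replicate 2 for C3, Cp and Lbp. The highest library was splenic C26 replicate 4 for Serpina3n, Saa3 and Hp, splenic C26 replicate 3 for Lcn2, subcutaneous C26 replicate 1 for C3 and Cp, and subcutaneous C26 replicate 4 for Lbp. Over the 16 libraries, deviations from the group means (log2 CPM) correlated at 0.88 between Lcn2 and Saa3, 0.88 between Serpina3n and Saa3, and 0.83 between Lcn2 and Serpina3n (Pearson r). The values were 0.86 for C3 and Cp, 0.81 for Cp and Lbp, and 0.03 for Lcn2 and C3. These are descriptions, since the libraries share differences in depth and RNA composition.

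**Figure D3:**
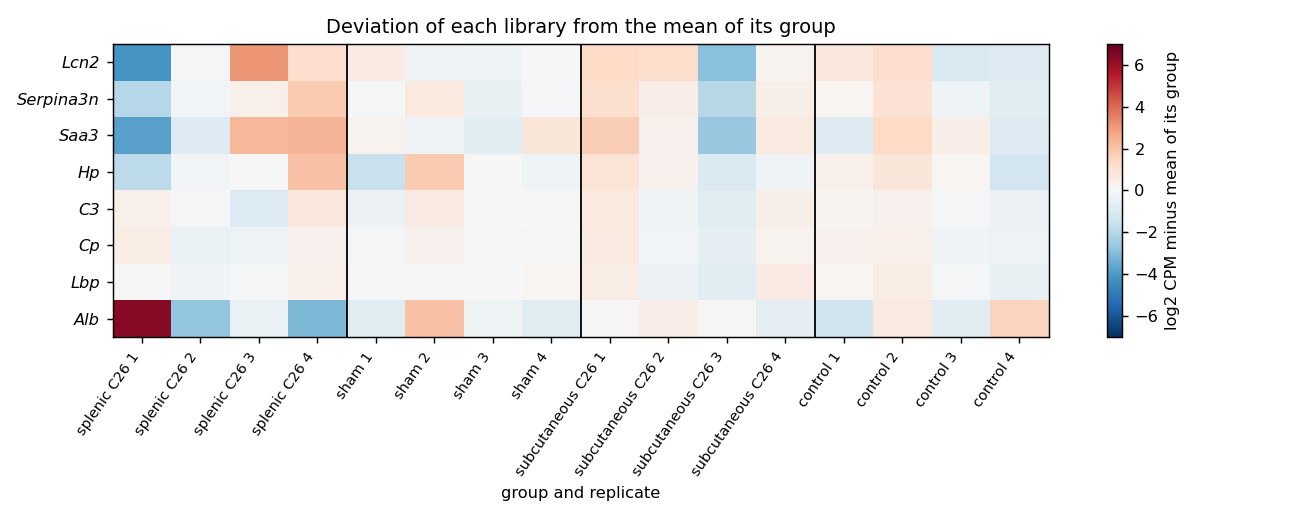
Deviation of each library from its group mean (log2 CPM, colour) for the 7 genes and Alb, libraries ordered by group. Splenic C26 replicate 1 is low for Lcn2, Serpina3n, Saa3 and Hp and high for Alb.

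The genes closest to each member by this measure, among genes averaging at least 1 CPM, were often outside the acute-phase response. For Lcn2 they were Rps21 (0.96), Sat1 (0.96) and Cdkn1a (0.96). Rps21 encodes a ribosomal protein, Sat1 an enzyme of polyamine breakdown and Cdkn1a a cell-cycle inhibitor. For Serpina3n they were Rpl32 (0.96), Mocs1 (0.95) and Rps12 (0.95), and for Saa3 Rpl36 (0.95), Rps13 (0.95) and Rplp1 (0.95), ribosomal protein genes apart from Mocs1. Hp was closest to Tgoln1 (0.95), Trappc6a (0.94) and Hacd2 (0.94), and C3 to P2rx4 (0.95), Ahi1 (0.95) and Eif2ak3 (0.94). For Cp they were Nova1 (0.96), Igfbp4 (0.95) and Ptbp3 (0.94). For Lbp they included Scara5 (0.95) and Itgam (0.93), of which Itgam encodes a chain of a complement receptor.

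Alb was then read in every library. Its counts were 2389, 2, 13 and 1 in splenic C26 libraries, against 7, 76, 14 and 7 in sham libraries. In subcutaneous C26 libraries they were 20, 28, 16 and 10, against 643, 2288, 678 and 3744 in control libraries. Alb was therefore high in splenic C26 replicate 1 and in all control libraries, at 76.2 CPM and at 16.5 to 127 CPM, and at 0.0388 to 0.611 CPM in the other splenic C26 libraries. In splenic C26 the log2 fold change of Alb was 4.61 ± 1.62 (adjusted p = 0.0269) with overlapping groups, and it was -1.83 without replicate 1 (adjusted p = 0.210). The call was also lost without sham replicate 1 (adjusted p = 0.0646), 3 (adjusted p = 0.0688) or 4 (adjusted p = 0.0667), with only the compared groups fitted (adjusted p = 0.0893), and with limma-voom (adjusted p = 0.790). In subcutaneous C26 it was -6.51 ± 1.75 (adjusted p = 0.00736), with the groups apart. In sham against control it was -6.22 ± 1.71 (adjusted p = 0.439), also with the groups apart, and it passed with DESeq2 (adjusted p = 0.0104) and without splenic C26 replicates 1 and 3, subcutaneous C26 replicate 4 and control replicate 1 (adjusted p = 0.00436).

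Alb and the 7 genes did not rank the libraries alike. Control replicate 2, with 2288 Alb counts, was the highest tumour-free library for Lcn2, Serpina3n, Saa3, Cp and Lbp, though below every tumour library for all of these but Cp and Saa3. Control replicate 4, with 3744 Alb counts, had 29 counts of Lcn2, 193 of Serpina3n, 0 of Saa3 and 442 of Hp, and it was among the lowest 2 of the 8 tumour-free libraries for every gene but Lcn2. Splenic C26 replicate 4, with 1 Alb count, had 15978 counts of Lcn2, 33442 of Serpina3n, 596 of Saa3 and 43752 of Hp. Splenic C26 replicate 1, with 2389 Alb counts, had 485, 2814, 8 and 3583 counts of the same 4 genes. For C3, Cp and Lbp this library was not among the lowest 2 tumour libraries, at 526, 37.6 and 61.8 CPM. Splenic C26 replicate 4 held 724, 32.8 and 80.2 CPM of these 3. Without splenic C26 replicate 1 the splenic C26 log2 fold changes were 10.32 for Lcn2, 6.54 for Serpina3n, 8.09 for Saa3, 4.64 for Hp and 2.12 for Lbp. Each was larger than with the library, and 5 of 7 still passed.

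**Figure D4:**
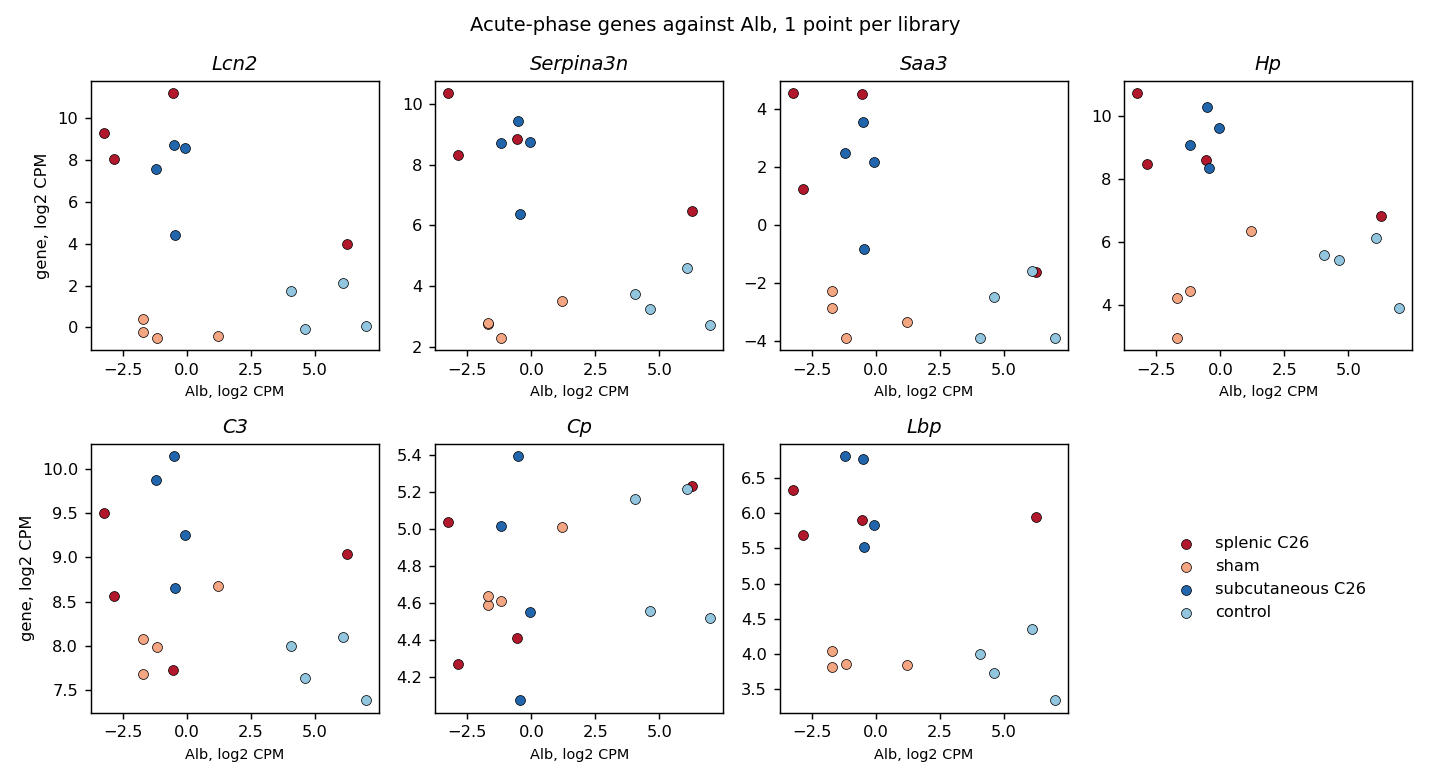
Log2 CPM of each of the 7 genes (vertical) against log2 CPM of Alb (horizontal), 1 point per library, coloured by group. Control libraries lie to the right at low levels of Lcn2, Serpina3n, Saa3, Hp and Lbp, and the tumour libraries other than splenic C26 replicate 1 lie to the left at high levels.

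Reads of Lcn2 per read of Alb were 0.203, 3633, 3793 and 15978 in splenic C26 libraries, against 5.29, 0.303, 1.71 and 3.29 in sham libraries. They were 654, 420.5, 31.6 and 514 in subcutaneous C26 libraries, against 0.199, 0.0634, 0.0354 and 0.00775 in control libraries. The subcutaneous C26 libraries all exceeded the control libraries, while splenic C26 replicate 1 fell below every sham library. As log2 CPM of the gene minus that of Alb, all 7 genes lay apart in subcutaneous C26 against control, each with p = 0.0286 (exact two-sided permutation test), the smallest that 4 against 4 can give. After adjustment over 14 tests this was 0.0571, so none passed, and with only 7 of the 14 at that floor none could. All 7 ratios share Alb, which itself lay apart between these groups, so they are not 7 separate results. The difference was 12.33 for Lcn2, the largest, and 5.89 for Cp, the smallest, although Cp itself changed by -0.06. Against sham, all 7 ratios of splenic C26 overlapped, with exact permutation p from 0.143 to 1.

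Across the 8 tumour libraries no relation of a gene to Alb passed, out of 14 relations tested in tumour and tumour-free libraries. The strongest was that of Hp, with Pearson r = -0.72 (exact permutation p = 0.0503, adjusted p = 0.328) and Spearman rho = -0.48 (exact permutation p = 0.243, adjusted p = 0.851). Without splenic C26 replicates 1 and 4, the farthest in Alb, r for Hp was 0.42, so the negative value rests on them. Tumour-free libraries split in Alb by group, 0.239 to 2.25 CPM in sham and 16.5 to 127 CPM in control. Their r thus mixes 2 groups, as the tumour r does, and none passed. It was 0.56 for Serpina3n (exact permutation p = 0.142, adjusted p = 0.399), 0.50 for Lcn2, 0.43 for Hp and 0.30 for Cp. For Saa3, Lbp and C3 it was 0.04, -0.16 and -0.32. Without sham replicate 1 and control replicate 4, r was 0.86 for Serpina3n (exact permutation p = 0.0236, unadjusted), 0.75 for Lcn2, 0.72 for Hp and -0.26 for C3. With Alb as a covariate, 5 of 7 genes passed in splenic C26 and 3 of 7 in subcutaneous C26. In the subcutaneous comparison Serpina3n (3.37, adjusted p = 0.0392), C3 (1.83, adjusted p = 0.0415) and Lbp (2.29, adjusted p = 0.00486) passed. Lcn2 (4.07, adjusted p = 0.184), Saa3 (2.66, adjusted p = 0.391) and Hp (2.89, adjusted p = 0.117) did not. Among the other genes named, Serpina3m (0.98, adjusted p = 0.609), Serpina3i (3.68, adjusted p = 0.0581), Itih4 (1.84, adjusted p = 0.409) and Fgb (-0.82, adjusted p = 0.697) also lost their calls. That fit has 1 Alb slope shared by all 16 libraries, set by the spread of Alb within groups, which was widest in splenic C26. Alb does not overlap between subcutaneous C26 and control. The values there thus rest on extending that slope across the gap, without libraries of like Alb level.

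Hepatocyte markers were counted in the same way. Of 19 measured, Alb among them, 15 rose and 0 fell in splenic C26, but 1 rose and 1 fell without replicate 1. In subcutaneous C26, 1 rose and 17 fell. Every gene of the table passed 0.5 CPM in at least 4 libraries. A marker low elsewhere could thus be listed through the control libraries alone and had to fall in subcutaneous C26. These counts therefore support nothing further. Apoa1, an apolipoprotein gene, was at 15.8, 0.181, 0 and 0.621 CPM in splenic C26 libraries, against 0, 0.237, 0.214 and 0.103 CPM in sham libraries, so only replicate 1 stood out. The markers summed to 84.8 to 323 CPM in splenic C26, 20.5 to 246 CPM in sham, 146 to 278 CPM in subcutaneous C26 and 114 to 405 CPM in control. Cyp2e1 exceeded all other markers together in 12 of 16 libraries, at 315 CPM in splenic C26 replicate 4, where 7 of the markers were at 0 counts. Without Cyp2e1, replicate 1 of splenic C26 summed to 186 CPM. The sum without it was 3.94 to 7.53 CPM in the other splenic C26 libraries, 4.85 to 27.2 CPM in sham, 5.36 to 7.83 CPM in subcutaneous C26 and 62.3 to 326 CPM in control. Of 10 other acute-phase genes listed as made by the liver, 7 rose and 0 fell in splenic C26, and 4 rose and 0 fell without replicate 1. In subcutaneous C26, 1 rose and 3 fell. The 10 genes together summed to only 1.74, 15.7, 4.58 and 2.91 CPM in sham replicates 1 to 4. Orm1 alone held 1.02, 12.1, 3.19 and 2.19 CPM of these sums. Genes under 0.5 CPM in a sham library needed other libraries to be listed, so the counts of this list also support nothing further. The most abundant of the 10 was Itih4 in splenic C26 replicates 1, 2 and 4, at 9.13, 47.7 and 155 CPM. In replicate 3 it was Saa1, at 42.6 CPM. Replicates 1 to 4 held 2389, 2, 13 and 1 Alb counts. The list name gives the usual source, and the source in these libraries was not tested. Itih4, which encodes a chain of the inter-alpha-trypsin inhibitor family, rose by 7.59 ± 1.31 (adjusted p = 0.000470) in splenic C26 and by 3.66 ± 1.02 (adjusted p = 0.00870) in subcutaneous C26 on the log2 scale. Fgb, a fibrinogen chain, was at 5.23 ± 1.53 (adjusted p = 0.0111) in splenic C26, at 2.76 without replicate 1 (adjusted p = 0.121), and at -4.12 ± 1.17 (adjusted p = 0.00962) in subcutaneous C26. The part of liver RNA in the results for the 7 genes was not tested beyond these values.

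Transcription factors of the acute-phase response were mostly higher in tumour-bearing muscle. Of 15 measured, 12 rose and 1 fell in splenic C26, and 10 rose and 0 fell in subcutaneous C26, with median log2 fold changes of 1.48 and 1.30. For this and the next 2 lists, 28.1% of all genes were called higher and 23.9% lower in splenic C26, 52.0% in all. These shares were 27.0%, 23.1% and 50.0% in subcutaneous C26. The lists were chosen with earlier results of these data known. Stat3 averaged 388 ± 178 CPM in splenic C26 and 68.7 ± 5.84 CPM in sham, a log2 fold change of 2.498 ± 0.26 (adjusted p = 2.15e-05), and 2.19 ± 0.26 (adjusted p = 4.85e-05) in subcutaneous C26. Cebpb, a C/EBP factor, rose by 1.99 ± 0.28 (adjusted p = 0.000127) in splenic C26 and by 2.09 ± 0.28 (adjusted p = 0.000100) in subcutaneous C26. Of 16 receptors and kinases of the acute-phase cytokines, 7 rose and 1 fell in splenic C26 (6 rose and 4 fell without replicate 1), and 8 rose and 2 fell in subcutaneous C26. Il6ra, the IL-6 receptor, rose by 3.94 ± 0.35 (adjusted p = 8.80e-06) in splenic C26 and by 4.50 ± 0.36 (adjusted p = 5.16e-06) in subcutaneous C26. Of 11 acute-phase and IL-6-induced genes of cells outside the liver, 8 rose and 1 fell in splenic C26, and 6 rose and 2 fell in subcutaneous C26. Socs3, the feedback inhibitor of STAT3, averaged 127 ± 66.8 CPM in splenic C26 and 4.25 ± 0.497 CPM in sham, with log2 fold changes of 4.90 ± 0.45 (adjusted p = 1.03e-05) and, in subcutaneous C26, 4.06 ± 0.43 (adjusted p = 3.02e-05).

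Few complement genes passed, where 52.0% of all genes passed in splenic C26 and 50.0% in subcutaneous C26. Of 23 measured, 2 rose and 2 fell in splenic C26 (2 rose and 8 fell without replicate 1, 2 rose and 0 fell without replicate 3), and 4 rose and 2 fell in subcutaneous C26. C4b, which encodes complement component C4, averaged 128 ± 77.2 CPM in splenic C26 and 32.7 ± 13.4 CPM in sham, a log2 fold change of 1.97 ± 0.39 (adjusted p = 0.00118). In subcutaneous C26 it averaged 208 ± 74.2 CPM and in control 22.8 ± 5.18 CPM, a log2 fold change of 3.19 ± 0.41 (adjusted p = 9.46e-05). C4a is a near copy of C4b, and reads may be shared. C1qb, a chain of the complement starter C1q, did not pass, at 0.09 ± 0.38 (adjusted p = 0.860) in splenic C26 and 0.90 ± 0.39 (adjusted p = 0.0642) in subcutaneous C26.

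Receptors and partners of the 7 proteins passed in both directions. Of 17 measured, 2 rose and 3 fell in splenic C26 (4 rose and 4 fell without replicate 1, 1 rose and 1 fell without replicate 3), and 5 rose and 4 fell in subcutaneous C26. Over all genes, 52.0% passed in splenic C26 and 50.0% in subcutaneous C26. Tfrc, the transferrin receptor through which cells take up iron, was at 12.1, 6.25, 13.4 and 4.93 CPM in splenic C26 libraries, against 133, 140.3, 133 and 147 CPM in sham libraries. The groups lay far apart, and Tfrc changed by -3.92 ± 0.29 (adjusted p = 3.41e-06) on the log2 scale, and by -3.01 ± 0.28 (adjusted p = 1.04e-05) in subcutaneous C26. Hmox1, which breaks down heme, rose by 1.96 ± 0.36 (adjusted p = 0.000734) in splenic C26 and by 2.53 ± 0.37 (adjusted p = 0.000185) in subcutaneous C26. Cd163, the receptor for haptoglobin bound to haemoglobin, was at 0.79 ± 0.39 (adjusted p = 0.103) in splenic C26 and rose by 1.36 ± 0.40 (adjusted p = 0.0111) in subcutaneous C26.

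**Figure D5:**
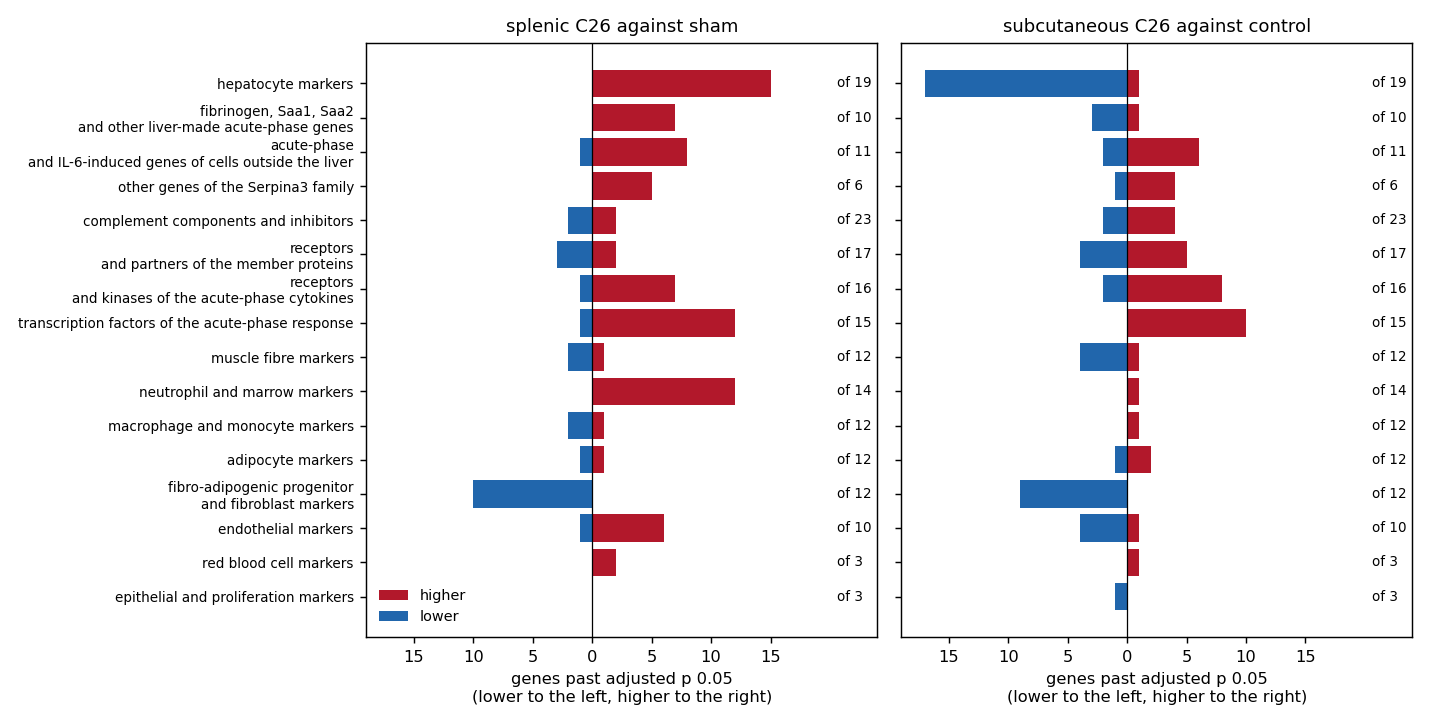
Genes of each list that were higher (right) or lower (left) at an adjusted p under 0.05 in splenic C26 against sham and in subcutaneous C26 against control, with the number measured at the edge. Transcription factors of the response were mostly higher in both comparisons. Of 19 hepatocyte markers, 15 were higher in splenic C26 and 17 lower in subcutaneous C26, though markers could be listed through the control libraries alone. Of all genes, 52.0% passed in splenic C26 and 50.0% in subcutaneous C26.

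Markers of other cells that can hold these RNAs are given beside them. They are read against 28.1% of all genes called higher and 23.9% lower in splenic C26. In subcutaneous C26 these shares were 27.0% and 23.1%. Of 14 neutrophil and marrow markers, 12 rose and 0 fell in splenic C26, 6 rose and 0 fell without replicate 3, and 1 rose and 0 fell in subcutaneous C26. Without splenic C26 replicates 1 and 3, subcutaneous C26 replicate 4 and control replicate 1, an alternative chosen after seeing the data, 11 rose and 0 fell in subcutaneous C26. They summed to 52.3 to 242 CPM in splenic C26, 84.7 to 115 CPM in sham, 45.5 to 158 CPM in subcutaneous C26 and 52.1 to 158 CPM in control, with Lyz2, which macrophages share, the most abundant of them in all libraries but splenic C26 replicate 3. Between 4 and 8 of these markers were at 0 counts in the sham libraries. Markers at 0 there could be listed only through other libraries, so the counts of this list support nothing further. Ngp, a neutrophil granule gene, was at 0.0957, 0.325, 45.8 and 1.05 CPM in splenic C26 libraries, against 0, 0, 0 and 0.0343 CPM in sham libraries, and at 11.8 CPM in control replicate 1, where Lcn2 was at 3.28 CPM. Of 12 macrophage and monocyte markers, 1 rose and 2 fell in splenic C26, and 1 rose and 0 fell in subcutaneous C26, with sums of 133 to 304 CPM in splenic C26, 163 to 214 CPM in sham, 121 to 323 CPM in subcutaneous C26 and 98.9 to 208 CPM in control. Of 12 markers of fibro-adipogenic progenitors and fibroblasts, 0 rose and 10 fell in splenic C26, and 0 rose and 9 fell in subcutaneous C26, with sums of 1026 to 3282 CPM in splenic C26, 3226 to 4195 CPM in sham, 1006 to 1921 CPM in subcutaneous C26 and 2464 to 4709.9 CPM in control. Of 10 endothelial markers, 6 rose and 1 fell in splenic C26, and 1 rose and 4 fell in subcutaneous C26. Of 12 muscle fibre markers, 1 rose and 2 fell in splenic C26, and 1 rose and 4 fell in subcutaneous C26. Of 3 red blood cell markers, 2 rose and 0 fell in splenic C26, and 1 rose and 0 fell in subcutaneous C26. Of 3 epithelial and proliferation markers, 0 rose and 0 fell in splenic C26, and 0 rose and 1 fell in subcutaneous C26. Subcutaneous C26 replicate 4, the library highest in Lbp, stood apart in the last 2 lists. Its red blood cell markers summed to 131 CPM, against 8.60 to 28.6 CPM in the other subcutaneous C26 libraries, and its epithelial and proliferation markers to 61.6 CPM, against 0.984 to 3.19 CPM. Without it the log2 fold change of Lbp in subcutaneous C26 was 2.21 (adjusted p = 0.000255). The part of these cells in the 7 genes was not tested.

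The effects of the 2 tumour sites were compared directly. All splenic C26 and sham libraries share one title prefix and all subcutaneous C26 and control libraries another, so in comparisons across these sets the groups and whatever the prefix stands for cannot be told apart. By edgeR 0% of all genes passed in the difference of the effects (851 at an unadjusted p under 0.05, and 86 called by DESeq2), and 0 of the 7 passed with edgeR and 0 with DESeq2. The difference was 3.19 ± 1.53 for Lcn2 (95% interval -0.07 to 6.44, adjusted p = 0.801) and -1.09 ± 0.51 for C3 (95% interval -2.18 to -0.01, adjusted p = 0.772). For Serpina3n it was 1.27 ± 0.96, for Saa3 1.83 ± 2.34, for Hp 0.24 ± 1.09, for Cp 0.13 ± 0.39 and for Lbp -0.34 ± 0.38. The 95% interval for Hp was -2.09 to 2.58 and that for Lbp -1.15 to 0.46, so differences of several fold lie within it for Hp. Between splenic C26 and subcutaneous C26 libraries 0% of genes passed with edgeR (1358 at an unadjusted p under 0.05, 163 called by DESeq2), none of the 7 with either tool. Lcn2 was at 1.68 ± 1.01 (adjusted p = 0.595) and C3 at -0.75 ± 0.36 (adjusted p = 0.502) there. No member had groups apart, as 1.97% of all genes did in either direction. In sham against control 0.00751% of genes passed and none of the 7 (285 genes at an unadjusted p under 0.05, 58 called by DESeq2). Lcn2 was at -1.503 ± 1.15 and Lbp at -0.01 ± 0.27, and no member had groups apart, as 4.86% of all genes did in either direction.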

How the data were processed

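RNA of quadriceps was sequenced in 16 libraries, 4 per group. The authors deposited raw read counts per gene, made with STAR and featureCounts on mm10 per the labels and the submitters' processing notes, with versions and strand setting not given in the sources used here. A deposited table of log2 values matched log2 CPM after TMM scaling (residual SD 0.00180). The deposited tables held 13320 genes, all over 0.5 CPM in at least 4 libraries, and 4013 blank lines without values. R 4.3.3 ran edgeR 4.0.16 on the counts, a robust quasi-likelihood fit with TMM scaling and 1 mean per group over all 16 libraries, with p-values adjusted by Benjamini-Hochberg over all genes and a threshold of 0.05. Intervals and SEs are on the log2 scale. Levels are TMM-scaled CPM, and log2 CPM used a prior count of 2. Replicates were numbered in accession order and the numbers name libraries only. Exact permutation tests used SciPy 1.17.1. The fit was tested on simulated counts. Alternatives were DESeq2 1.42.0, limma 3.58.1 (voom and trend), other scalings and filters, Alb as a covariate, and leaving out libraries. The members and gene lists were chosen with earlier results of these data known. Gene list counts without particular libraries were alternatives chosen after seeing the data. Named genes were the 7 members, Alb, and for each gene list the 2 measured genes with the smallest p in each tumour comparison, and for each member the 3 genes of at least 1 CPM on average that were most like it, of which 1 is not reported here. Adipoq, Ngp, Lyz2 and Cyp2e1 were named as markers after their values were seen.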

Additional observations from a re-analysis of the deposited data

Results flagged for a closer look

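Cp was at 32.2 CPM in sham replicate 2, apart from the other 3 sham libraries, by a gap of 0.89 of the range of its group on the log2 scale. Of 32 groups of 4 libraries tested in this way (7 genes and Alb in 4 groups), this was the only one past Dixon's critical value at 95%, and chance flags about 1 in 20 groups. The same library was the highest of the sham group in adipocyte markers. It was also the highest of them in Alb, at 76 counts, against 7, 14 and 7 in sham replicates 1, 3 and 4. The part of either in the Cp value was not tested.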

How the results depend on the processing

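Lcn2, Serpina3n, Saa3, Hp, C3 and Lbp kept their direction in both tumour comparisons under every alternative fitted, though not all kept their calls. No paired analysis was possible because replicate numbers were given in accession order and pair no libraries. With the Alb covariate, 967 genes and 3 members passed in subcutaneous C26 against control. Cp, near 0 throughout, was -0.12 in splenic C26 against sham with upper-quartile scaling and -0.00958 without 4 libraries that an earlier account of these data had named for transcripts of other tissues (splenic C26 replicates 1 and 3, subcutaneous C26 replicate 4, control replicate 1). With the Alb covariate Cp was 0.24 in subcutaneous C26 against control, -0.22 in the difference of effects and 0.13 in sham against control. Without the 4 libraries Alb was -3.72 in splenic C26 against sham and -3.59 in splenic against subcutaneous C26, and Hp was 0.40 in splenic against subcutaneous C26, where Saa3 was -0.00312 with limma-voom. Lbp in sham against control was 0.0194 with limma-voom, 0.0325 with limma-trend and 0.0171 without the 4 libraries. The ratio of C3 to Alb in splenic C26 against sham was 0.095 with a prior count of 0.5, and r of C3 with Alb was 0.00389 over deviations from group means. Counts of genes were 86 with DESeq2 in the difference of effects, 163 with DESeq2 and 2 without the 4 libraries in splenic against subcutaneous C26, and in sham against control 58 with DESeq2, 7 with limma-trend, 47 without the 4 libraries, and 0 with the Alb covariate or with only the compared groups fitted. The causes of these changes were not tested.

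Leaving out 1 library at a time gave 5745 to 8201 genes and 5 to 6 members in splenic C26 against sham, 5061 to 7547 genes and 6 to 6 members in subcutaneous C26 against control, 0 to 66 genes in the difference of effects, 0 to 307 in splenic against subcutaneous C26 (the highest without splenic C26 replicate 1) and 0 to 7 in sham against control. In splenic C26 against sham the log2 values spanned -0.10 to 0.21 for Cp and -1.83 to 6.05 for Alb, and in subcutaneous C26 against control -0.32 to 0.13 for Cp. In the difference of effects they spanned -0.90 to 1.30 for Hp and -0.056 to 0.40 for Cp. In splenic against subcutaneous C26 they spanned -0.48 to 0.80 for Serpina3n, -1.33 to 0.22 for Hp, -0.23 to 0.21 for Cp and -1.52 to 5.33 for Alb, and in sham against control -1.499 to 0.71 for Saa3 and -0.16 to 0.17 for Lbp. The log2 ratio to Alb in splenic C26 against sham spanned -1.46 to 1.86 for C3 and -1.87 to 1.23 for Cp. Depth limits Saa3 and Alb, which had 0 to 9 counts of Saa3 in tumour-free libraries and as few as 1 count of Alb in a tumour library.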
